A study of Mus musculus with 6 samples.

Results

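Chromosome 8 was examined in mouse malignant mesothelioma, a cancer of the membranes that line the chest and abdomen, by array comparative genomic hybridisation. In this assay tumour DNA and normal DNA, each with its own dye, bind to the same spots of known sequence. The probes described are those that the annotation of the denser ARF-128 array places on this chromosome in the mm7 build. They numbered 11538 of 238202 non-control spots on the denser design and, joined by probe name, 2181 of 43020 on the sparser design. The chromosome was singled out because its measured ratios were high in some tumours and partly low in another, so its levels and calls are given as a description and carry no test of their own.

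The 6 arrays held 5 tumours of 1 group. ARF-110 was measured on the sparser design, ARF-129, ARF-104 and ARF-112 on the denser one, and ARF-128 on both. Tumour DNA was always labelled with Cy5 and normal C57BL/6J DNA with Cy3, so a positive log2 ratio means more copies in the tumour, and no array had the dyes exchanged. The study's description speaks of cells from 4 Arf (+/-) mice and its title of asbestos and Arf knock-out mice. The labels name 5 tumours, and the sources used here do not give how these match the 4 mice. All arrays but that of ARF-104 are labelled as primary malignant mesothelioma cells. Age, sex, the strain of the tumour mice, any pooling of animals and the meaning of the addition PlusMinus on the denser array of ARF-128 are not given in the sources used here. Normal DNA of the tumour-bearing animals was not analysed here, and genomic DNA holds no expression markers by which the labelled cell type could be checked.

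A gain or loss of a whole chromosome shifts every probe on it by about the same amount, while a break within it leaves a step between neighbouring probes. If every cell of a diploid tumour held 1 extra copy the log2 ratio would be 0.58, and with 1 copy missing it would be -1, but these data cannot tell fewer affected cells from fewer copies per cell. Mouse chromosome 8 carries genes of growth signalling (Insr, Fgfr1), of innate immunity (Tlr3, the beta-defensins), of DNA repair (Wrn, Polb) and a large group of cadherins. Losses on the human 8p arm, part of which corresponds to the first portion of mouse chromosome 8, are common in carcinomas.

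The probes on either side of the 3 steps that were found under at least 9 of 10 other settings of the processing are shown first. A step counted as found where a border lay within 1 Mb of it. Bases are printed with G and C in capitals, because hybridisation ratios can vary with GC content. The sequences were taken from the deposited annotation of the denser design, which gives no strand. The first pair flanked the start of the ARF-110 loss and lay at chr8:15088705-15088764 in Myom2 (a sarcomere protein gene) and at chr8:15866718-15866777 in a cDNA without a symbol, with values of 0.12 and -0.54 in ARF-110.
Last probe before the ARF-110 loss: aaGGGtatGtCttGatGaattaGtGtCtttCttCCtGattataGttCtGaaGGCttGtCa
First probe in the ARF-110 loss: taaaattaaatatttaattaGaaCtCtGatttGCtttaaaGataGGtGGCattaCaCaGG
The second pair flanked its end, at chr8:64056347-64056406 outside any named gene and at chr8:64335764-64335823 in Marchf1 (a membrane ubiquitin ligase gene), with values of -0.56 and -0.00 in ARF-110.
Last probe in the ARF-110 loss: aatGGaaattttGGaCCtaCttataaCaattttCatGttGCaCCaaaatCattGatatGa
First probe after the ARF-110 loss: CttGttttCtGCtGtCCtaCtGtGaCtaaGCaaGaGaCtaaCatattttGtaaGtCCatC
The 2 probes just inside the loss were poorer in G and C, at 26.7% and 28.3%, than the 2 just outside, at 36.7% and 38.3%. The third pair flanked the main step of ARF-112, at chr8:63491614-63491673 and chr8:63499622-63499681, with values of -0.05 and -1.08 in ARF-112.
Last probe before the ARF-112 step: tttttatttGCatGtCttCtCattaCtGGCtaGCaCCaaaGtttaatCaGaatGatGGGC
First probe after the ARF-112 step: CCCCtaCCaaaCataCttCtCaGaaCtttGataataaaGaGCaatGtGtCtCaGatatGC

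Values were obtained for 11383 to 11388 probe names on the 4 denser arrays and for 2139 on both sparser ones, from the first probe start at 3011640 to the last probe end at 127855653. The median spacing was 7.93 kb in ARF-104 and 18.8 kb on the sparser design. The probes were 45 to 60 bases long, 68.4% lay in a named gene, and their median GC content was 36.7%. Red signal over background ranged from 5.44-fold on the denser ARF-128 array to 14.7-fold in ARF-104. The spread between neighbouring probes, on the log2 scale, was 0.15 in ARF-110 and 0.78 on the denser array of ARF-128, so ARF-110 was the quietest array although it held fewer probes.

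Taking the mean log2 ratio over all its probes, chromosome 8 stood at 0.60 in ARF-129, 0.43 in ARF-104, 0.44 and 0.41 on the denser and sparser ARF-128 arrays, -0.07 in ARF-112 and -0.11 in ARF-110. As linear ratios these are 1.51, 1.35, 1.35, 1.33, 0.955 and 0.924. The mean over the 5 tumours was 0.26 ± 0.32 (SD, n = 5, ARF-128 by its denser array), so the spread between tumours was larger than the mean. After normexp background correction the level of ARF-129 was 0.31, against 0.34 in ARF-104 and 0.31 and 0.39 on the denser and sparser ARF-128 arrays, so the order among the gained tumours depended on that step. ARF-112 was then at -0.02, and ARF-110 was at -0.07 when arrays were centred on the mode. Among the 19 autosomes chromosome 8 ranked first in ARF-104, second in ARF-129 and on both ARF-128 arrays, 14th in ARF-112 and 17th in ARF-110.

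**Figure D1:**
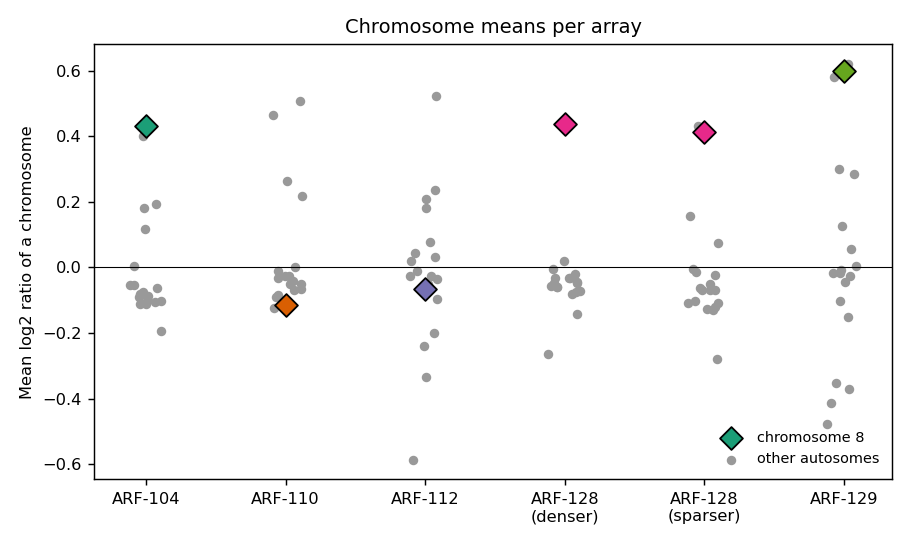
Mean log2 ratio of chromosome 8 (diamonds) and of each other autosome (grey points) on the vertical axis, for each of the 6 arrays on the horizontal axis. Chromosome 8 stands between 0.41 and 0.60 in 3 tumours, at -0.07 in ARF-112 and at -0.11 in ARF-110.

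In the gained tumours the level held along the whole chromosome. Means of 1 Mb bins, of which the chromosome has 116, ranged from 0.33 to 0.78 in ARF-129, from 0.24 to 0.57 in ARF-104 and from 0.16 to 0.78 on the denser ARF-128 array, with no bin below 0. On the sparser ARF-128 array they ranged from -0.17 to 0.68, and 2 bins lay below 0. A segment, a run of probes with 1 fitted level, was called gained or lost where its mean was at or past 0.25 in size. By that rule all 116 bins were gained in ARF-104, where 17% of the bins of the genome were, and in ARF-129, where 20.5% were. All 116 were likewise gained on both arrays of ARF-128, against 7.89% of all bins on each. None was gained in ARF-110 or ARF-112, where 12.8% and 8.63% of all bins were.
Losses were called in ARF-110 and ARF-112. ARF-110 had 44 of 116 bins lost, against 3.95% of its bins genome-wide, and ARF-112 had 4 lost, against 15.2%. No bin of chromosome 8 was lost in ARF-104 (1.51% genome-wide), on the denser and sparser ARF-128 arrays (1.93% and 1.74%) or in ARF-129 (26.6%). The chromosome was chosen on these ratios, so nothing is read from its counts beside the genome's.

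**Figure D2:**
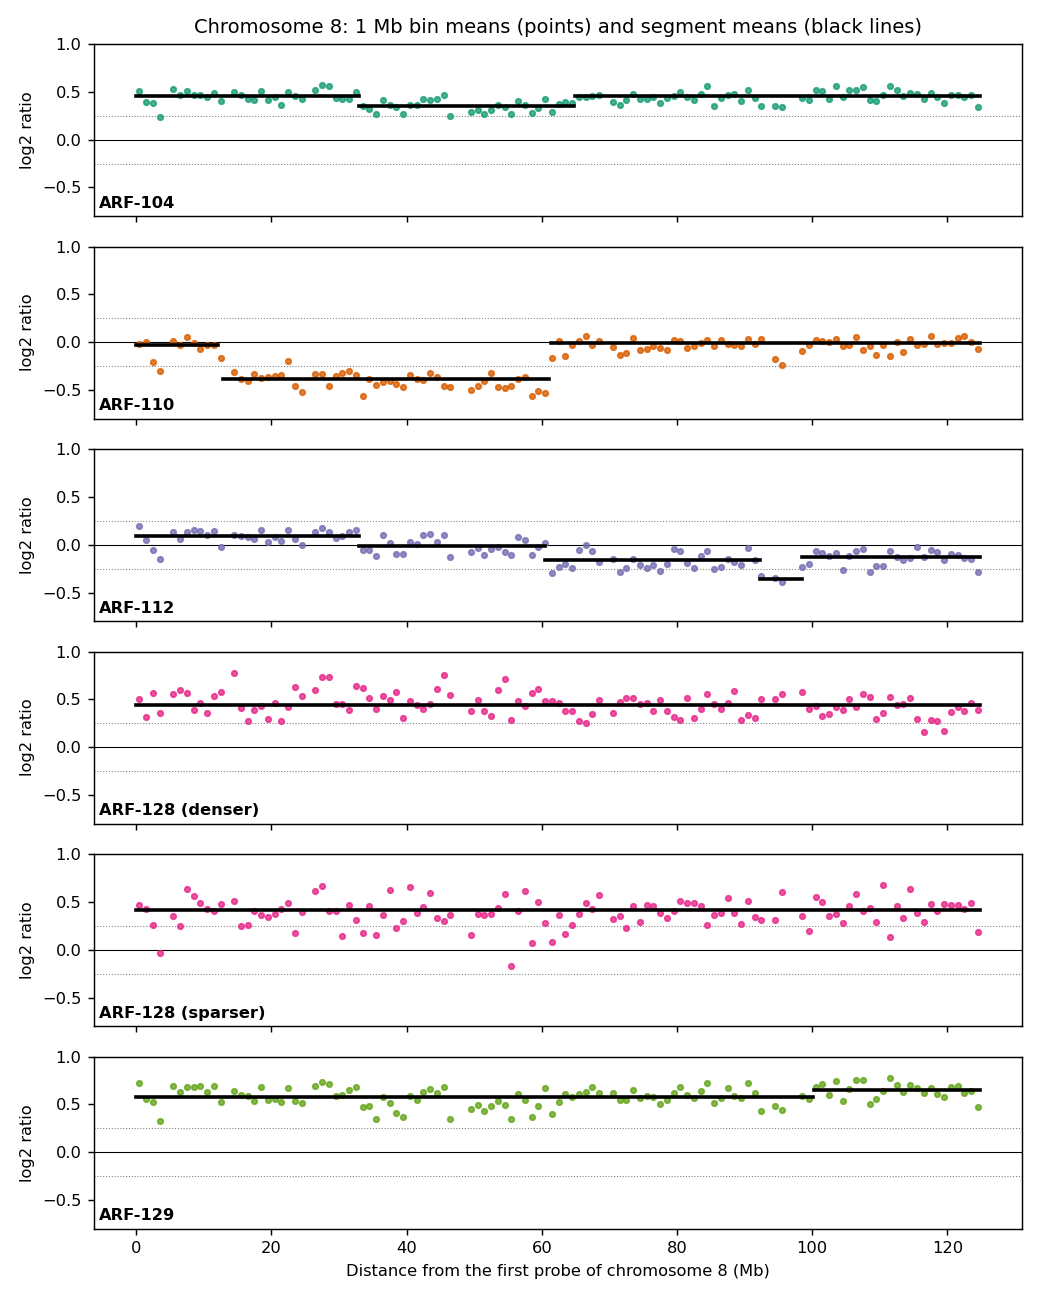
Log2 ratio against distance from the first probe of chromosome 8 in Mb, 1 panel per array. Points are means of 1 Mb bins, black lines segment means and dotted lines the calling threshold of 0.25 in size; the lowered stretch of ARF-110 has a mean of -0.38, and the levels of ARF-112 step down to -0.36.

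The loss in ARF-110 was a single stretch inside the chromosome. It ran from 15866718 to 64056406, over 48.2 Mb and 584 probes, with a mean of -0.38 ± 0.21 (SD over probes), against -0.02 ± 0.19 over the 225 probes before it and -0.01 ± 0.18 over the 1330 probes after it. Inside it 97.3% of probes were below 0, and the 5th to 95th percentiles ran from -0.69 to -0.08, against -0.31 to 0.24 outside. The 44 bins inside ranged from -0.57 to -0.20 with a median of -0.39, and the 70 bins outside from -0.31 to 0.06 with a median of -0.03, so the ranges overlapped in a few bins. The lowest bins outside the loss began at 6 Mb, at -0.31, and at 98 Mb, at -0.24.
Both edges were abrupt. At the first, the 20 probes inside averaged -0.41 ± 0.25 and the 20 before it -0.00 ± 0.20 (SD), across a gap of 778 kb without a probe. Csmd1 (a large gene for a complement regulator) was the first symbol inside. At the second, the 20 probes inside averaged -0.52 ± 0.27 and the 20 after it -0.10 ± 0.30, across a gap of 279 kb. Both edges were found under each of the 10 other settings of processing and segmentation. After adjustment for GC content the 3 levels were -0.03, -0.36 and -0.03.
No other tumour was low over the same stretch. There ARF-129 averaged 0.55, ARF-104 0.40, the denser and sparser arrays of ARF-128 0.49 and 0.39, and ARF-112 0.03. ARF-110 is the only tumour on the sparser design alone, and its loss was not remeasured on the denser one.

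Of the 1082 genes of chromosome 8 with a probe in every tumour, each valued as the mean of its probes, 289 lay in the ARF-110 stretch. Of these 282 were below 0 in ARF-110 and 240 at or below -0.25, against 413 and 29 of the 793 genes outside it. The gene lists below group genes by role, and 82 of 97 listed genes had a value in every tumour. All 20 list members inside the stretch were below 0 in ARF-110, from -0.72 to -0.12, against 28 of 62 outside, which ranged from -0.24 to 0.29. The edges of the stretch were set by the same ARF-110 values, so these contrasts are a description and lend the loss no support of their own.

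**Figure D3:**
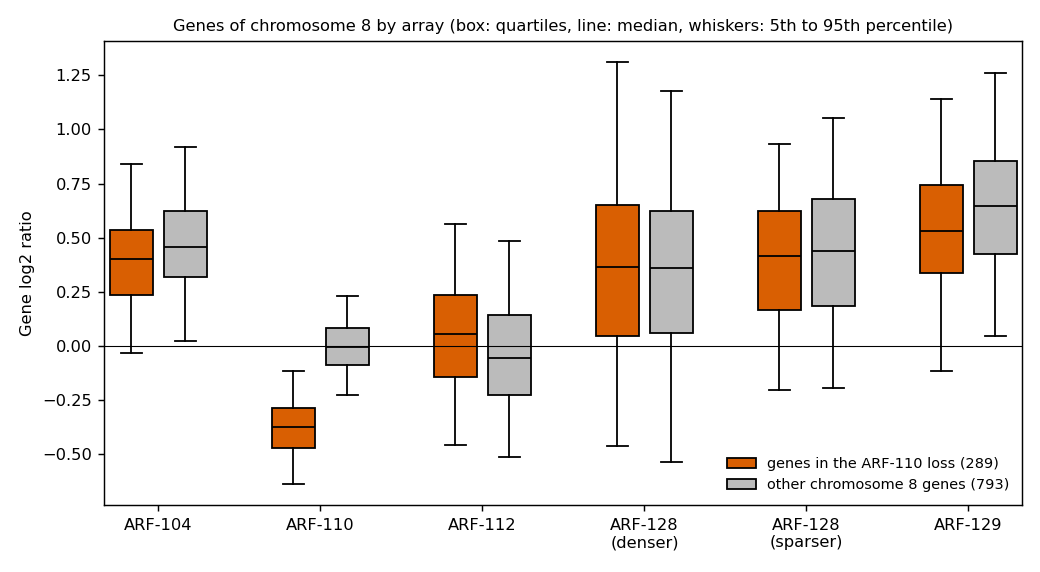
Log2 ratios of the 289 genes in the ARF-110 loss (orange) and of the 793 other chromosome 8 genes (grey) for each array; boxes are quartiles, lines medians and whiskers the 5th to 95th percentile. The medians in ARF-110, whose own values set the stretch, were -0.37 and -0.01, and those of the other arrays lay closer together.

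Of 13 listed genes of growth signalling, 4 lay in the stretch, and the shallowest of them in ARF-110 was Adrb3, a beta-adrenergic receptor, at -0.16. Fgfr1, a receptor for fibroblast growth factors, was at -0.29 in ARF-110, against 0.12 in ARF-129, 0.16 in ARF-104, 0.35 and 0.69 on the denser and sparser ARF-128 arrays and 0.05 in ARF-112. Vegfc, a growth factor for lymphatic vessels, was at -0.44 in ARF-110, against 0.52 in ARF-129, 0.39 in ARF-104, 0.52 and 0.31 on the denser and sparser ARF-128 arrays and -0.04 in ARF-112. Tll1, a metalloproteinase that acts on BMP antagonists and procollagen, was at -0.64 in ARF-110. Fgfr1, Vegfc and Tll1 had their lowest value in ARF-110, the tumour whose low probes set the stretch. The 9 members outside the stretch ranged in ARF-110 from -0.24 for Smad1, which carries BMP signals, to 0.26 for Gdf15.
The 4 listed DNA repair genes of the stretch stood low in the same tumour. Wrn, a RecQ helicase, was at -0.57 in ARF-110, against 0.60 in ARF-129, 0.39 in ARF-104, 0.47 and -0.05 on the denser and sparser ARF-128 arrays and 0.01 in ARF-112. Polb, the gap-filling polymerase of base excision repair, was at -0.40 in ARF-110, against 0.88 in ARF-129, 0.69 in ARF-104, 1.02 and 0.44 on the denser and sparser ARF-128 arrays and 0.29 in ARF-112. Neil3, a DNA glycosylase, was at -0.60 in ARF-110 and Mcph1, which acts in chromosome condensation and the DNA damage response, at -0.31. All 4 had their lowest value in ARF-110, the tumour whose low probes set the stretch. There 282 of the 289 genes of the stretch were below 0, so nothing particular to repair genes is read from this.
In the same stretch Tlr3, a sensor of double-stranded RNA, was at -0.35 in ARF-110. Ikbkb, the kinase that marks inhibitors of NF-kB for breakdown, was at -0.29, and Irf2, an interferon regulatory factor from the list of transcription factors, at -0.47. Nod2, a sensor of bacterial cell walls, and Tradd lay outside the stretch, at 0.01 and 0.10. Irf2 stood at 0.71 in ARF-129, 0.53 in ARF-104, 0.18 in ARF-112 and 0.52 and 0.42 on the denser and sparser ARF-128 arrays.
Listed tumour suppressors of the stretch were at -0.72 to -0.12 in ARF-110, each from 1 or 2 probes on its design. Csmd1, with 216 probes on the denser and 2 on the sparser design, was at -0.72 in ARF-110, against 0.59 in ARF-129, 0.45 in ARF-104, 0.75 and -0.15 on the denser and sparser ARF-128 arrays and 0.03 in ARF-112. Tusc3, a subunit of the oligosaccharyltransferase, was at -0.37 in ARF-110, Ing2, a chromatin reader, at -0.31, and Msr1, a macrophage scavenger receptor, at -0.26. Dlc1 was at -0.12, the shallowest of the 20, from 1 probe on that design. In the protease and redox lists Adam9, Plat (tissue plasminogen activator) and Gsr (glutathione reductase) were at -0.58, -0.49 and -0.35 in ARF-110.
The beta-defensins, small antimicrobial peptides encoded in a cluster, all lay in the stretch. Of the 17 genes named Defb, 16 were below 0 in ARF-110, with a median of -0.39, and Defb50 was at 0.18. Their medians were 0.32 in ARF-129, 0.25 in ARF-104, 0.14 and 0.24 on the denser and sparser ARF-128 arrays and -0.12 in ARF-112. The 289 genes of the stretch, the Defb genes included, had medians of 0.53 in ARF-129, 0.40 in ARF-104, 0.36 and 0.41 in ARF-128, 0.05 in ARF-112 and -0.37 in ARF-110, so the Defb median was close to that of the stretch in ARF-110. Of the 17, 13 rested on 1 denser probe, and close copies within the family may share hybridisation.

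ARF-112, with a mean near 0 over the chromosome, was split by a step. Before the step the mean was 0.05 ± 0.42, and from 63499622 to the end it was -0.15 ± 0.44 (SD over 5003 and 6380 probes). From the step on, all 60 bins were below 0, from -0.39 to -0.00, while before it 19 of 55 were, in a range of -0.15 to 0.19. The 20 probes after the step averaged -0.30 ± 0.38 and the 20 before it -0.03 ± 0.37. Adjusted for GC content, the levels were -0.19 after the step and 0.06 before it, and after normexp the part from the step on was at -0.06. The step was found under 9 of the 10 other settings, and on the probe names shared by both designs the border lay instead between 61559351 and 61750554.
The deepest stretch of ARF-112 lay beyond it, from 95320359 to 101423659, over 6.10 Mb with 356 probes and 10 gene names. Its mean was -0.36 ± 0.34, against 0.46 in ARF-129, 0.34 in ARF-104, 0.51 and 0.37 on the denser and sparser ARF-128 arrays and -0.14 in ARF-110, where it held 8 probes. Cdh8 and Cdh11, cell adhesion genes of the cadherin family, lay in it, at -0.37 and -0.29 in ARF-112. Its edges were found under 7 and 6 of 10 other settings, and neither was found after adjustment for GC content, where the GC-adjusted mean of the stretch was -0.33.
In ARF-112 the medians of list members were -0.12 over the 53 from the step on and 0.06 over the 29 before it. All chromosome 8 genes on the same sides were close, at -0.10 and 0.08. The step was placed on the same ARF-112 values, so these medians are a description and lend it no support. Single members from the step on ranged in ARF-112 from -0.54 for Orc6 to 0.84 for Lyl1, with Gdf15 at 0.73. The genes named next are from the low end. Rbl2, a pocket protein related to the retinoblastoma protein, was at -0.52 in ARF-112, against 0.22 in ARF-129, 0.12 in ARF-104, 0.07 and 0.29 on the denser and sparser ARF-128 arrays and -0.05 in ARF-110. Ctcf, the insulator-binding protein, was at -0.46 in ARF-112, against 0.42 in ARF-129, 0.32 in ARF-104, 0.07 and 0.21 on the denser and sparser ARF-128 arrays and -0.04 in ARF-110. Orc6, a subunit of the replication origin complex, was at -0.54 in ARF-112, but its low value was not particular to that tumour. It was at 0.07 in ARF-129, -0.28 in ARF-104, -0.76 and 0.09 on the denser and sparser ARF-128 arrays and 0.08 in ARF-110. Nfat5 and Nfatc3, factors of the NFAT family, were at -0.46 and -0.45 in ARF-112, and Cbfb, the partner of RUNX factors, at -0.34. In ARF-129, ARF-104 and the denser ARF-128 array Nfat5 was at 0.23, 0.19 and 0.04. Nfatc3 was at 0.41, 0.20 and -0.18 there, and Cbfb at 0.40, 0.25 and 0.03. These genes, Rbl2 and Ctcf lay below their segments there too. Those segments stood at 0.58 or 0.66, 0.45 and 0.44. On the sparser ARF-128 array Nfatc3, at 0.66, lay above its segment at 0.41. Nothing particular to ARF-112 is read from these genes.

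The step of ARF-112 and the end of the ARF-110 loss lay close together. From the first probe after the ARF-112 step to the last probe in the ARF-110 loss was 557 kb. The 24 probes in between averaged -0.27 ± 0.38 in ARF-112, and 2 of them on the sparser design averaged -0.50 ± 0.08 in ARF-110. The same 24 probes averaged 0.61 in ARF-129, 0.34 in ARF-104 and 0.68 on the denser array of ARF-128. On the sparser ARF-128 array the 2 probes averaged -0.02 ± 0.38, below its segment at 0.41. So the low side was the left one in ARF-110 and the right one in ARF-112. In the short stretch between, values were low in both tumours. In ARF-110 this rests on 2 probes that also read low on the other sparser array, so an overlap is not established. Trim60, of the tripartite motif family, was the last symbol before the ARF-112 step, at -0.01 in ARF-112 and -0.24 in ARF-110. Marchf1 was the first symbol after the ARF-110 loss, at -0.29 in ARF-112 and 0.05 in ARF-110.

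**Figure D4:**
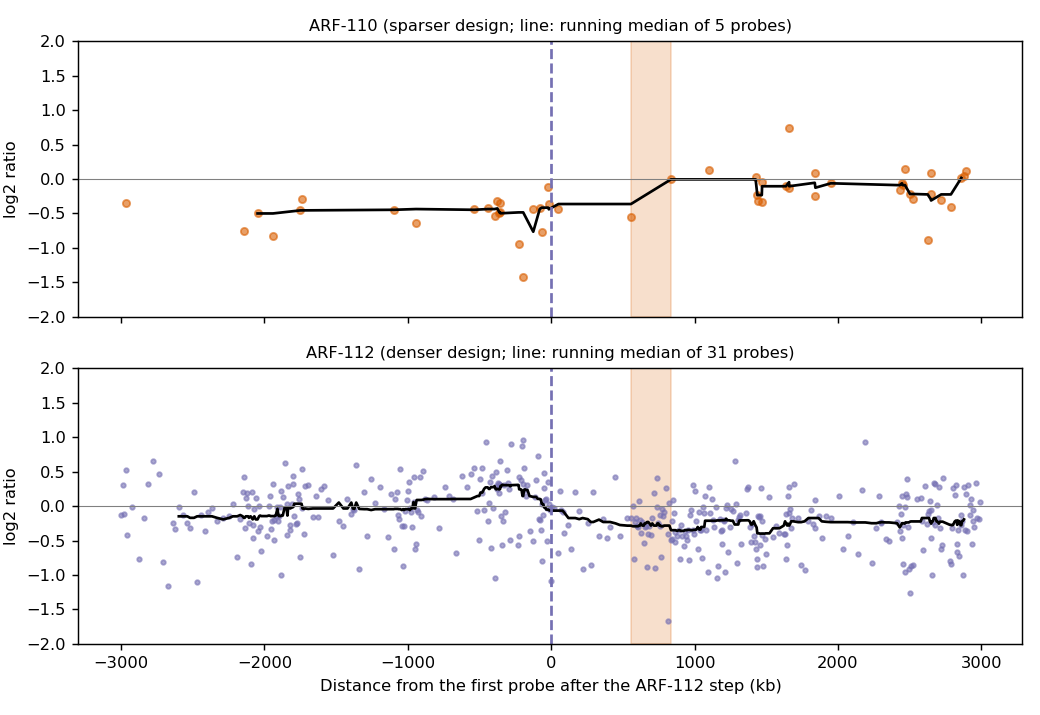
Log2 ratio of single probes (points) against distance in kb from the first probe after the ARF-112 step, for ARF-110 above and ARF-112 below; black lines are running medians, the dashed line is the ARF-112 step and the shaded band the gap at the end of the ARF-110 loss. ARF-110 is low to the left of the band and ARF-112 to the right of the dashed line.

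Steps in the gained tumours were shallow. ARF-104 was split into 0.45, 0.35 and 0.45 at 35918562 and 67835413, and ARF-129 into 0.58 and 0.66 at 103187680 between Car7, a carbonic anhydrase, and Pdp2, a pyruvate dehydrogenase phosphatase. The middle part of ARF-104 had the lowest GC content of its 3, at 36.2% against 36.6% and 36.9%. After adjustment for GC content its levels were 0.45, 0.38 and 0.43 and those of ARF-129 0.58 and 0.60, and no step was then found in either. ARF-104 and ARF-112 shared the border at 35918562 to the probe, which was found within 1 Mb under 7 of 10 other settings in each and not after the GC adjustment. After normexp it lay apart, at 36421350 in ARF-104 and 35788138 in ARF-112. At a penalty of 3 log n ARF-129 also had a border at 35918562.
Bin means correlated with the GC content of their probes at r = 0.49 in ARF-129, 0.48 in ARF-104, -0.42 and 0.25 on the denser and sparser ARF-128 arrays, 0.10 in ARF-112 and 0.52 in ARF-110 (116 bins each). Between ARF-104 and ARF-129, scanned on 1 day, bin means correlated at r = 0.93, and at 0.90 after the adjustment. ARF-112, scanned on the same day, correlated with ARF-104 at r = 0.35 and with ARF-129 at r = 0.40. These are descriptions across bins measured with the same probes on each of these arrays. The small ups and downs along the gained chromosome were thus alike in ARF-104 and ARF-129.
The arrays of ARF-128 had like levels and unlike fine profiles. Over the 2139 shared probes the denser array averaged 0.33 ± 0.85 and the sparser 0.41 ± 0.45, with r = 0.38 across probes. When both arrays were centred on the shared probes alone the denser was at 0.46 and the sparser at 0.41, so the sign of their difference depended on the centring. Their bin means correlated at r = 0.10, or 0.30 after the GC adjustment. Each was fitted by 1 segment, at 0.44 and 0.41, with no border in either.

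Across the 5 tumours, genes and bins were also fitted with limma against a ratio of 0. Of 1082 chromosome 8 genes, 120 (11.1%) were higher at an adjusted p under 0.05, against 8.07% of all 20022 genes, and 11 (1.02%) were lower, against 6.64%. No chromosome 8 bin of 116 was called in either direction, against 3.9% of all bins higher and 0.642% lower. At an unadjusted p under 0.05, 41 were higher and 0 lower, against 215 and 306 of all 2179 bins. Because the chromosome was chosen on these ratios, the counts are a description. The median gene stood at 0.25 over the 5 tumours on chromosome 8 and at -0.01 over all genes. With scan day as a random block no chromosome 8 gene was called, and over all autosomes 3 genes were higher and 3 lower. With it 5 of 116 chromosome 8 bins were called higher, against 118 of all 2179 bins. Leaving out ARF-129, ARF-104 or ARF-112 left no gene called on any autosome. Without ARF-110, 339 chromosome 8 genes were higher, of 2145 on all autosomes.
ARF-110 and the sparser ARF-128 array were scanned on the first day, at -0.11 and 0.41, and ARF-129, ARF-104 and ARF-112 on the second, at 0.60, 0.43 and -0.07. The denser ARF-128 array was scanned on the third, at 0.44.

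Of the 82 list members 5 were called higher, against 120 of the 1082 chromosome 8 genes, and the counts by role are a description. Among 13 growth factors, receptors and adaptors none was, with a median over tumours of 0.35. Gdf15, a stress-induced cytokine, was highest at 0.72 ± 0.64 and Pik3r2, a regulatory subunit of PI3-kinase, lowest at -0.03 ± 0.26 (SD, n = 5 here and for the genes below). Gdf15 rested on 1 probe of 46.8% GC, which was at -0.08 and 1.74 on the denser and sparser ARF-128 arrays. Insr, the insulin receptor, was at 0.75 in ARF-129, 0.50 in ARF-104, 0.65 and 0.19 on the denser and sparser ARF-128 arrays, 0.16 in ARF-112 and -0.04 in ARF-110.
Among 18 transcription factors and chromatin regulators, with a median of 0.18, only Lyl1 was called higher. Lyl1, a basic helix-loop-helix factor of blood cells, was at 1.64 in ARF-129, 1.22 in ARF-104, 1.06 and 0.71 on the denser and sparser ARF-128 arrays, 0.84 in ARF-112 and 0.09 in ARF-110, from 1 probe. Irx5, an Iroquois homeobox factor, had the highest mean, 1.16, with values from 0.05 in ARF-110 to 2.74 in ARF-129, and was not called. Foxc2, a forkhead factor, had the lowest, -0.11 ± 0.28. Irx5 and Foxc2 also rested on 1 probe each.
Of 6 genes of TNF signalling, innate sensing and cell death, Tradd, an adaptor of TNF receptor 1, was called higher. It was at 0.77 in ARF-129, 0.71 in ARF-104, 1.12 and 1.04 on the denser and sparser ARF-128 arrays, 0.18 in ARF-112 and 0.10 in ARF-110. The list median was 0.15.
None of 9 tumour suppressors was called, around a median of 0.21 and from 0.44 ± 0.44 for Dlc1 to -0.03 ± 0.29 for Rbl2. Neither was any of 7 cadherins, around 0.21 and from 0.39 ± 0.35 for Cdh1, the epithelial cadherin, to 0.15 ± 0.37 for Cdh15, the muscle cadherin. The most densely probed members, Cdh13 with 140 and Wwox with 119 probes, were, in that order, at 0.68 and 0.62 in ARF-129, then 0.48 and 0.44 in ARF-104, -0.15 and -0.24 in ARF-112 and 0.08 and -0.17 in ARF-110.
In the list of 10 genes of DNA repair, telomeres and the cell cycle, with a median of 0.18, Cul4a, a ubiquitin ligase scaffold, was called higher. It was at 1.07 in ARF-129, 0.68 in ARF-104, 0.72 and 0.51 on the denser and sparser ARF-128 arrays, 0.51 in ARF-112 and 0.07 in ARF-110, and Orc6 was lowest of the list at -0.29 ± 0.37. None of 9 redox and metal genes was called, around 0.27, with Mt1 and Mt4, both metallothioneins, highest and lowest at 0.81 ± 0.81 and -0.05 ± 0.19. Mt1 and Mt4 rested on 1 probe each. Mt2 and Mt3, which lie between them and also have 1 probe each, averaged 0.23 ± 0.42 and 0.26 ± 0.56.
Of 12 matrix, protease and chemokine genes, with a median of 0.30, 2 were called higher. Mmp15, a membrane-bound matrix metalloproteinase, was at 0.98 in ARF-129, 0.64 in ARF-104, 0.62 and 0.33 on the denser and sparser ARF-128 arrays, 0.28 in ARF-112 and 0.17 in ARF-110. Ccl17, a chemokine that attracts T cells, averaged 0.62 ± 0.50 and was at -0.13 in ARF-110, from 1 probe. Adam9 was lowest of this list at 0.13 ± 0.45. No member of any list was called lower, and none of the 5 called higher was called with scan day as a block.

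Among genes with at least 3 denser probes and 1 sparser, the highest means over the tumours were those of Arglu1 (0.82 ± 0.50), Fhod1 (0.76 ± 0.58), Il12rb1 (0.75 ± 0.41), Dctd (0.73 ± 0.67) and Bcar1 (0.73 ± 0.65). Arglu1 encodes an arginine- and glutamate-rich splicing factor, Fhod1 a formin, Il12rb1 a subunit of the interleukin-12 receptor, Dctd the dCMP deaminase and Bcar1 the adaptor p130Cas. The lowest means were those of Scoc (-0.46 ± 0.32), Adgrg1 (-0.39 ± 0.34), Primpol (-0.39 ± 0.33), a cDNA without a symbol (-0.35 ± 0.51) and Aadat (-0.34 ± 0.37). Scoc encodes a short coiled-coil protein, Adgrg1 an adhesion G protein-coupled receptor, Primpol a primase-polymerase and Aadat an aminoadipate aminotransferase.
Scoc and Primpol lay 0.4 or more below their segment in all 5 tumours, with ARF-128 by its denser array. Scoc was at -0.06 in ARF-129, -0.34 in ARF-104, -0.53 and 0.28 on the denser and sparser ARF-128 arrays, -0.94 in ARF-112 and -0.44 in ARF-110. Primpol was at -0.05 in ARF-129, -0.10 in ARF-104, -0.45 and 0.02 on the denser and sparser ARF-128 arrays, -0.47 in ARF-112 and -0.87 in ARF-110. On the sparser ARF-128 array, whose segment stood at 0.41, both genes were below it by less than 0.4. Neither thus met the rule there, and both were nearer to their segment than on the denser array.
Such departures in at least 3 tumours, in 1 direction, were seen in 40 of 658 genes with 3 or more probes (6.08%), against 471 of 11327 on the other autosomes (4.16%). Of the 40, 19 lay above and 21 below their segment, with median GC contents of 36.8% and 35.6%. After the GC adjustment 28 genes departed, 25 of them shared with the first 40. Xab2, a splicing and repair factor, and Ido1, which breaks down tryptophan, were among those above, and Adam3, a sperm protein gene, and Tk2, the mitochondrial thymidine kinase, among those below.

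Single probes far below all others were looked for on the 4 denser arrays, a step chosen after the values were seen. At or below -1.5 on all 4 were 3 of 11377 chromosome 8 probes (0.0264%), against 119 of 208473 on the other autosomes (0.0571%). Of these 3, 2 were neighbours in Adamts18, which encodes a secreted metalloproteinase, and the third lay at 85799950 outside a named gene, at -2.20 in ARF-129, -2.28 in ARF-104, -3.66 in ARF-128 and -2.89 in ARF-112. The Adamts18 probes, spanning 112303484 to 112445268, numbered 20. The low pair and the probe on either side are shown, with G and C in capitals, because the 4 have the same GC content of 36.7% and differ only in position and letters. They lie at chr8:112381735-112381794, chr8:112391542-112391601, chr8:112396825-112396884 and chr8:112404322-112404381.
Probe before the low pair: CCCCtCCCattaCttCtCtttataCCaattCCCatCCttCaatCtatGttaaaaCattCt
First low probe: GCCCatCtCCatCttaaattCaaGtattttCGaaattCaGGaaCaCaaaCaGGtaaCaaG
Second low probe: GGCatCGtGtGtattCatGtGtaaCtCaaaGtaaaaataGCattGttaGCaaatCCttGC
Probe after the low pair: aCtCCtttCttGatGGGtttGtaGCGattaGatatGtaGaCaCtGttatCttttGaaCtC
The pair was at -1.95 and -3.47 in ARF-129, then -2.33 and -2.93 in ARF-104, -5.94 and -5.06 in ARF-128 and -3.85 and -3.32 in ARF-112. The other 18 Adamts18 probes averaged 0.69 in ARF-129, 0.58 in ARF-104, 0.49 in ARF-128 and -0.05 in ARF-112, so the gene followed its chromosome outside the pair. The pair spans 5.34 kb, and the nearest probes outside it were 22.5 kb apart. Tumour signal was not well above background in 5 of these 8 measurements, namely both probes in ARF-112 and ARF-128 and the second in ARF-129, and no fold is drawn from them. The depth depended on the background correction. After normexp the mean of the pair was -0.32 in ARF-129, -0.57 in ARF-104, -0.27 in ARF-128 and -0.49 in ARF-112, against -2.71, -2.63, -5.50 and -3.59 from the processed signals. The pair is not on the sparser design, so ARF-110 has no value. The low level was shared by gained and ungained tumours alike, and whether it is also low in normal DNA of these mice was not tested.

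**Figure D5:**
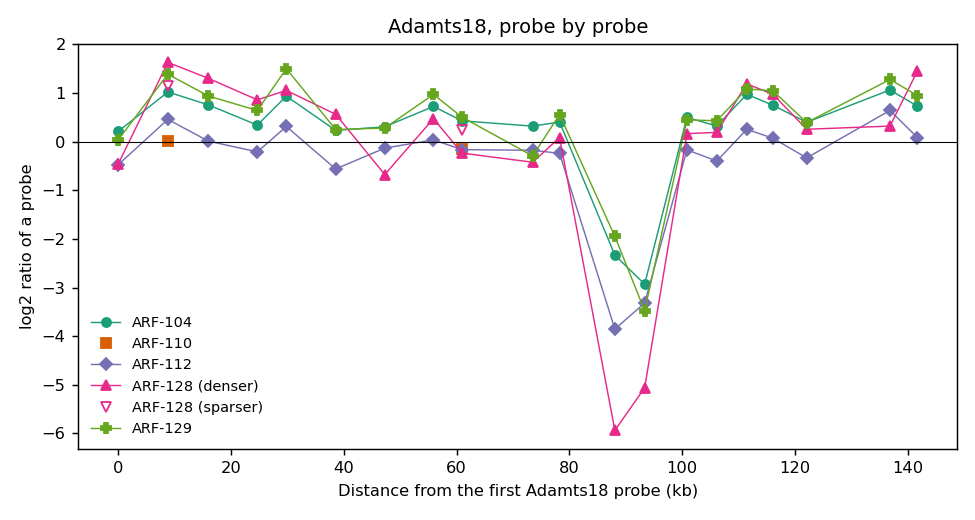
Log2 ratio of each Adamts18 probe against its distance in kb from the first Adamts18 probe, 1 line per denser array and single markers for the sparser arrays. The adjacent pair lies between -1.95 and -5.94, while the other probes stand near the level of the chromosome.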

How the data were processed

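Genomic DNA of 5 tumours was measured on 6 arrays. Per the file headers, the authors made the red and green intensity and the log10 ratio of each spot with Agilent Feature Extraction. Its version was 9.5.3.1 for the denser array of ARF-128, 9.1.3.1 for the other denser arrays and 8.5.1.1 for both sparser ones, per the file headers. The deposited value table gives log10 values for the sparser design and log2 values for the denser one, and served as an alternative. Positions are mm7, named in 1 header of the denser design. For the sparser arrays no header names a build, and their probes were placed by name. The authors' kits for the DNA have different names on the 2 designs, per the labels' protocols, and the DNA was cut with AluI and RsaI.

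Log2 ratios were computed from the authors' processed intensity, tumour over normal DNA. Control spots and spots marked as outliers were left out, repeats of a probe averaged, and the autosomal median of every array set to 0. Segments of at least 5 probes were fitted by least squares with a penalty of 5 log n, and called at 0.25 in size. Genes and 1 Mb bins were fitted with limma 3.58.1 in R 4.3.3 (intercept against 0, empirical Bayes, Benjamini-Hochberg over all genes or bins), which leaves out the spread of the normal DNA. The tumour numbers were taken as separate animals; otherwise p-values measure only the spread between these samples. Scripts were tested on simulated data. The number of arrays limits the precision.

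The members, gene lists and tests were chosen with earlier results of these data known. Genes were named where they were list members, flanked a border, had one of the 5 highest or lowest means, lay 0.4 or more from their segment in at least 3 tumours, or were defensins; Adamts18 was added after its values were seen. A list member is not reported here. Names were updated through the GRCm38.p6 gene table, by accession for 792 of 1337 names and by symbol or synonym for 28, and 517 kept the name of the file. Olfactory receptor names numbered 3 and are not described. Alternatives changed background correction, ratio source, outlier and dim spots, probe set, centring, penalty, threshold, the array of ARF-128, scan day, tumours left out and gene summary. The GC adjustment and centring on the mode were chosen after seeing the data.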

Additional observations from a re-analysis of the deposited data

Results flagged for a closer look

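In 132 sets of 5 tumour values examined, 2 had a value far from the other four, by a gap over the whole range above 0.71, and chance gives such a gap in about 1 in 20 sets. A cDNA without a symbol, AK167903, at the end of the ARF-110 loss, was at -1.42 in ARF-110 from 1 probe. It was at 0.62 to 1.33 in the other tumours, ARF-128 by its denser array, a gap of 0.741 of the range. On the sparser ARF-128 array the same probe was at -0.20, against 1.33 for the gene on the denser one, so the value also differed by design. Terb1, a meiotic telomere gene, was at -0.86 in ARF-112, against -0.28 to -0.11 in the other tumours, a gap of 0.769 of the range. Both lie in stretches that were low in the same tumour.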

How the results depend on the processing

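The level of chromosome 8 kept its sign on each array under all 8 other settings of the ratio, but that of ARF-129 was 0.31 after normexp, against 0.60 without it. The sign also held for the ARF-110 stretch, from -0.40 to -0.31, and the part of ARF-112 from its step on, from -0.19 to -0.06. The bins lost in ARF-112 numbered 4. They were 0 after normexp background correction, on shared probe names, at a penalty of 10 log n and after GC adjustment, 34 at a threshold of 0.15 and 2 at 0.35. The counts of bins gained or lost on the other arrays stayed within 1.5 times. Segment numbers moved more. ARF-104 had 3, but 7 after normexp, 6 at a penalty of 3 log n and 1 on shared probes, at 10 log n or GC-adjusted. ARF-110 had 3, but 5 at 3 log n, where 5 probes from 25796084 to 25842411 stood at 0.10. ARF-112 had 5, but 11 at 3 log n and 2 on shared probes, at 10 log n or GC-adjusted. The denser ARF-128 array had 1, but 2 after normexp and 3 at 3 log n. ARF-129 had 2, but 41 after normexp and 1 on shared probes, at 10 log n or GC-adjusted.
Genes called higher numbered 120. They were 313 with the sparser ARF-128 array or both its arrays averaged, 230 on shared probes, 0 on segment means or with scan day as a block, and 0 to 339 with 1 tumour left out. Over all autosomes 2959 were higher with the sparser ARF-128 array, 2908 with both averaged, 2325 on shared probes and 677 on segment means. Genes called lower numbered 11. They were 2 with at least 2 probes a gene, 2 after normexp, 20 with the ARF-128 arrays averaged, 36 on shared probes, 0 on segment means or with the block, and 0 to 15 with 1 tumour left out. Over all autosomes 648 were lower with at least 2 probes a gene, 472 after normexp, 2524 with the arrays averaged and 2346 on shared probes. Bins called higher numbered 0 (41 at an unadjusted p under 0.05), 5 with the block, 1 on shared probes or with the sparser ARF-128 array, and 0 to 0 with 1 tumour left out. Over all autosomes 118 bins were higher with the block, 96 on shared probes and 124 with the sparser ARF-128 array. Scoc turned to 0.26 when valued by its segments, which leaves out its own probes. The low pair in Adamts18 stood, after normexp, at -0.32 in ARF-129, -0.57 in ARF-104, -0.27 in ARF-128 and -0.49 in ARF-112. The cause of these changes was not tested. No paired analysis was possible because the 5 tumours form 1 group.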

Other observations

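The denser design holds 39 probes assigned to chromosome 8 without a position. They averaged 0.27 ± 0.65 in ARF-129, 0.32 ± 0.42 in ARF-104, 0.16 ± 0.66 in ARF-128 and 0.34 ± 0.37 in ARF-112 (SD over probes). In ARF-112 they stood above the placed probes, which averaged -0.07.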
